A study of Homo sapiens with 7 samples.

Results

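FOS, FOSB, FOSL1, FOSL2, JUN, JUNB, JUND, EGR1, ATF3 and MAFF are transcription factors of the AP-1 family and its relatives, most of them known as immediate early genes. Their RNA levels were described in RH30 cells, with and without the Smac mimetic BV6. The genes were chosen by symbol, as 10 of the 57189 genes in the count table. All 10 were among the 23124 genes with enough counts to be tested. RH30 is a human cell line of alveolar rhabdomyosarcoma, a childhood tumor with features of immature skeletal muscle, labelled as wild type. The study's methods describe its RH30 cells as expressing GFP and luciferase. Both groups were the same line grown in the same medium, either left untreated (n = 4) or given BV6 at 5 µM over 24 h (n = 3). Being 1 line, the samples gave no view of how rhabdomyosarcoma lines differ from each other. A BC label in the sample titles joined untreated replicates 2, 3 and 4 to the BV6 replicates of the same number. These pairs were taken as 3 experiments, BC13, BC14 and BC25/27. Untreated replicate 1 (BC11) had no BV6 partner. The library of BV6 replicate 3 stood apart by low levels of GC-rich genes, described beside the results it touches. Values in the text are read counts normalised to library size (CPM), and log2 fold changes are BV6 over untreated.

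BV6 mimics Smac, a mitochondrial protein that binds inhibitor of apoptosis proteins. It causes loss of cIAP1 and cIAP2, which frees NF-κB-inducing kinase and switches on NF-κB signaling. Signaling through the TNF receptor TNFR1, whose complex includes cIAP1 and cIAP2, can also reach the MAP kinases JNK, p38 and ERK, which act on AP-1. AP-1 is a dimer of basic leucine zipper (bZIP) proteins, with a JUN protein paired with a FOS, ATF or other JUN protein on a short palindromic DNA site. The FOS proteins cannot pair with themselves and need a JUN partner, whereas JUN proteins pair with each other as well. Immediate early genes are transcribed within minutes of a stimulus without new protein synthesis, and the RNA of FOS, FOSB and EGR1 is lost again soon after. FOSL1, FOSL2 and JUND transcripts are known to persist for longer.

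None of the 10 genes passed the test between BV6 and untreated cells. By the quasi-likelihood test of edgeR, adjusted by Benjamini-Hochberg over all tested genes, 0 of 10 had an adjusted p below 0.05, against 0.45% of all tested genes. At an unadjusted p below 0.05 it was 1 of 10, JUND, against 8.39% of all tested genes. DESeq2 and limma-voom also called 0 of 10, where they called 408 and 109 genes in all. The fit with both a GC correction and the replicate block called 2 of 10, FOSL1 and FOSL2, against 6.08% of 17937 genes. The BV6 and untreated values overlapped for each of the 10 genes, while 8.83% of tested genes had groups that did not overlap. FOSL1, FOSL2 and ATF3 were higher with BV6 in each of the 3 experiments, as were 15.6% of all tested genes. For ATF3 the log2 ratio in BC14 was only 0.06, and 0.00 after a GC correction. FOS, FOSB and EGR1 differed among untreated samples by 4.32-fold to 7.36-fold, the highest over the lowest value of a gene, and none of their mean levels differed as much between conditions. The p-values measure the spread among these samples of 1 cell line, and in bulk RNA fewer cells with a transcript and less RNA per cell cannot be told apart.

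**Figure D1:**
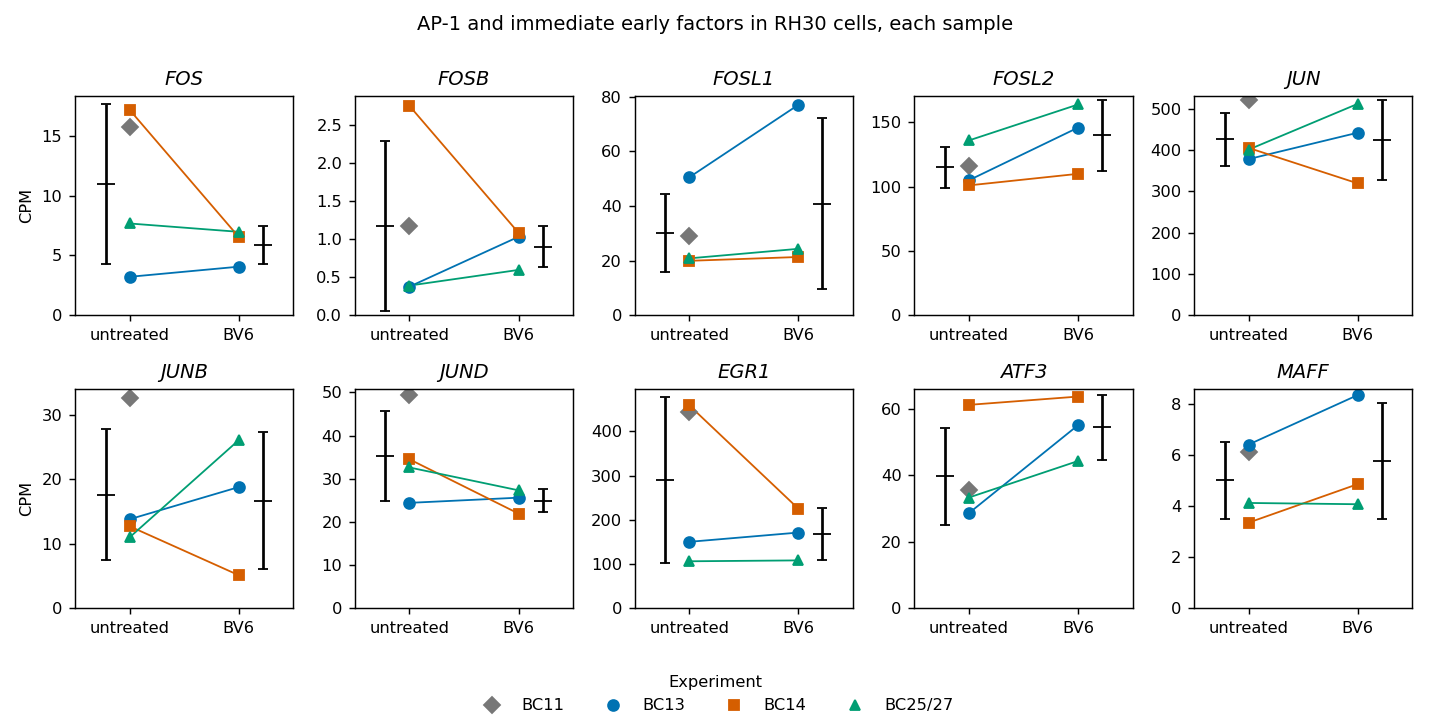
Normalised read counts (CPM, linear axis from 0) of the 10 genes in each sample. Colours and shapes mark the experiment, lines join the samples of one experiment, and black bars show the mean ± SD of each group (n = 4 untreated, n = 3 BV6). FOS, FOSB and EGR1 start from different untreated levels and lie lower with BV6 in BC14, whereas the lines of FOSL1, FOSL2 and ATF3 slope up in all 3 experiments.

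Promoters of 9 of the 10 genes were found in RefSeq (GRCh38.p14), each as 250 bases before and 50 after a transcript start. FOSL1 had no entry. The promoters of FOS, FOSB, EGR1, JUN and FOSL2 are shown because these genes carry the contrast described below, between transcripts that varied among untreated samples and transcripts that were steady. Both strands were searched for the AP-1 site TGACTCA (TPA response element), the cAMP response element TGACGTCA, its shorter form TGACGT (contained in it), the JUN-type variant TGACATCA, TATAAA, and the CArG box and κB site. Capitals mark the matches, with ACGTCA as the reverse complement of TGACGT, and each sequence reads 5′ to 3′ along the gene. They lie at chr14:75278578-75278877 (FOS, plus strand), chr19:45467746-45468045 (FOSB, plus strand), chr5:138465229-138465528 (EGR1, plus strand), chr1:58783998-58784297 (JUN, minus strand) and chr2:28392608-28392907 (FOSL2, plus strand).
FOS: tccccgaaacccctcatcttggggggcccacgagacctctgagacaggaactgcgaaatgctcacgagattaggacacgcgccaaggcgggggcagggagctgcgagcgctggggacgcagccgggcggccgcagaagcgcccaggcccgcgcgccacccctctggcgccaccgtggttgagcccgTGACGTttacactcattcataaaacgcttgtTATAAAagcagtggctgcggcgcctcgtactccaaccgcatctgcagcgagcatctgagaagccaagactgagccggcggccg
FOSB: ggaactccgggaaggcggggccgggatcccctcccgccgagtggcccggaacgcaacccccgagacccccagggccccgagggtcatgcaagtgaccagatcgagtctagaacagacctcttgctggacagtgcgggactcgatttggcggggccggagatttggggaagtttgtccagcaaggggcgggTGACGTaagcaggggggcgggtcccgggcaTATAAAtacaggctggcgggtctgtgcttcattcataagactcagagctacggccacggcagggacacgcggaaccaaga
EGR1: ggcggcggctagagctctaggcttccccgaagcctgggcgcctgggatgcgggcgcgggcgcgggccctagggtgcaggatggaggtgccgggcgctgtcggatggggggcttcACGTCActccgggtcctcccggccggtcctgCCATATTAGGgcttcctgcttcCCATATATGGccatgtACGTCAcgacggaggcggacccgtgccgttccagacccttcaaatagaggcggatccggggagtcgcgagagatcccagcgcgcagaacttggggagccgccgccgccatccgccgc
JUN: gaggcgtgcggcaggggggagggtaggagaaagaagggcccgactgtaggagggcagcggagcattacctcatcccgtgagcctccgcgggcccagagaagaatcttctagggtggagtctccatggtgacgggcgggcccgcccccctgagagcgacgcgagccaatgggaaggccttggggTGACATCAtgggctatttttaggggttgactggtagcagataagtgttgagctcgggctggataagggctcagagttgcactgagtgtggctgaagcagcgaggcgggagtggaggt
FOSL2: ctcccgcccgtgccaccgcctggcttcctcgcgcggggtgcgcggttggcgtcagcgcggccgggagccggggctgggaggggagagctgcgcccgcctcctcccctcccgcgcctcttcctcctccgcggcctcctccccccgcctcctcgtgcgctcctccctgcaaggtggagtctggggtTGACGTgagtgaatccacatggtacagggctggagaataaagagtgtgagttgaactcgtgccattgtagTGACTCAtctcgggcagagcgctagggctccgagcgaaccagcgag

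In the FOS promoter TGACGT began at -64 and TATAAA at -33, and in the FOSB promoter the same pair began at -60 and -30. EGR1 held TGACGT on the opposite strand at -136 and -67, and a pair of CArG boxes, the site bound by serum response factor, at -105 and -83. The CArG boxes are the ten-base runs in capitals in the EGR1 line. JUN held TGACATCA at -67, the place where ATF2 and JUN dimers are known to bind. FOSL2 held TGACGT at -66 and TGACTCA at position 5, counted from 1 at the first transcribed base. Of 27305 promoters of this length, TGACGT was in 8.32%, TGACTCA in 4.92%, TGACATCA in 2.71%, TGACGTCA in 1.98%, TATAAA in 12% and a CArG box in 1.29%. Among the 9 genes with a promoter, 6 held TGACGT in at least 1 promoter (FOS, FOSB, FOSL2, JUND, EGR1 and MAFF), and the full TGACGTCA was in JUND and MAFF. The shares above are per promoter, and ATF3 and MAFF have more than 1. ATF3 shared TGACATCA with JUN. TATAAA was in FOS, FOSB, JUNB and ATF3. A κB site was in a second MAFF promoter and in none of the other promoters searched for these genes, against 10.8% of all promoters. A match of letters is not evidence that a factor binds there.

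FOS (chr14:75278826-75282230), the founding member of its family, was measured at 15.8, 3.21, 17.2 and 7.68 CPM in untreated replicates 1 to 4. With BV6 it was at 4.06, 6.54 and 6.98 CPM in replicates 2 to 4. Untreated replicates 1 and 3 stood above all BV6 samples, and untreated replicate 2 stood below them. The group means were 11.0 ± 6.68 CPM without BV6 (SD, n = 4) and 5.86 ± 1.58 CPM with it (SD, n = 3), for a log2 fold change of -0.91 (SE 0.493, edgeR adjusted p = 0.679). Its 95% confidence interval ran from -2.01 to 0.20.

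FOSB (chr19:45467995-45475179), a close relative of FOS, was the lowest of the 10 genes. Untreated cells held 1.17, 0.374, 2.75 and 0.388 CPM, and BV6 cells 1.03, 1.08 and 0.594 CPM. These rest on 21 to 166 counts per sample, where 3 counts are 0.0389 to 0.0557 CPM. The library totals exceed the read numbers in the study's methods, so both mates of a read pair may have been counted, and counts may then overstate the number of fragments. The BV6 values fell inside the untreated range, with means of 1.17 ± 1.12 and 0.901 ± 0.267 CPM (log2 fold change -0.38, SE 0.646, edgeR adjusted p = 0.896). The sign turned to 0.09 with the replicate block, in which each BV6 sample is set against the untreated sample of its own experiment. Without untreated replicate 3 it was 0.47.

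FOSL1 (chr11:65892049-65900573), which encodes FRA1, an AP-1 subunit without the activation domain of FOS, was at 29.1, 50.5, 19.9 and 20.8 CPM in untreated cells. BV6 cells held 77.1, 21.3 and 24.3 CPM. Both samples of BC13 stood above the rest of their groups. The log2 fold change was 0.44 (SE 0.469, edgeR adjusted p = 0.825). Within the experiments BV6 was at 1.53, 1.07 and 1.17 times the untreated level in BC13, BC14 and BC25/27. With the replicate block the log2 fold change was 0.31 (SE 0.125, 95% confidence interval 0.02 to 0.61, edgeR adjusted p = 0.395), and with the GC correction added it was 0.42 (adjusted p = 0.049). Without BV6 replicate 2 the fit across groups gave -0.39.

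FOSL2 (chr2:28392448-28417317), which encodes FRA2, was at 116, 105, 101 and 136 CPM in untreated cells and at 146, 110 and 164 CPM with BV6. It was steady among untreated samples, whose highest value was 1.35 times the lowest. The means were 115 ± 15.8 and 140 ± 27.5 CPM (log2 fold change 0.29, SE 0.156, edgeR adjusted p = 0.679). BV6 stood at 1.39, 1.09 and 1.2 times the untreated level in BC13, BC14 and BC25/27. The replicate block gave the same log2 fold change with a smaller error (0.29, SE 0.0961, edgeR adjusted p = 0.295), and with the GC correction added it was 0.31 (adjusted p = 0.0212).

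Among the JUN proteins, the obligate partners of the FOS family, JUN (chr1:58776845-58784048) was the most abundant. Its untreated values were 521, 378, 405 and 401 CPM, and its BV6 values 442, 319 and 512 CPM. The group means were 426 ± 64.2 and 424 ± 97.7 CPM (log2 fold change -0.01, SE 0.172, edgeR adjusted p = 0.994). The 95% confidence interval of the log2 fold change was -0.39 to 0.38. The estimate rests on 19542 to 40132 counts per sample. Its sign was positive under 5 of the other settings tried, the highest being 0.17 without BV6 replicate 3.

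JUNB (chr19:12791486-12793315), often a weaker activator than JUN, was at 32.7, 13.8, 12.7 and 11.0 CPM in untreated cells. BV6 cells held 18.8, 5.1 and 26.1 CPM. Untreated replicate 1 stood far above the other untreated samples, and BV6 replicate 3 was the lowest of all 7 samples. The log2 fold change was -0.08 (SE 0.521, edgeR adjusted p = 0.978), and 0.41 without untreated replicate 1. JUNB shares 259 bases, or 14.15% of its exons, with HOOK2 on the opposite strand, and whether the counting used strand is not given in the sources used here.

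JUND (chr19:18279694-18281622), the JUN protein usually present in resting cells, was at 49.5, 24.4, 34.5 and 32.6 CPM in untreated cells and 25.6, 21.9 and 27.3 CPM with BV6. BV6 replicate 3 lay below all untreated samples, and untreated replicate 2 lay between BV6 replicates 3 and 2. The log2 fold change was -0.50 (SE 0.216, edgeR unadjusted p = 0.0441, adjusted p = 0.582). JUND has the highest exonic GC content of the 10 genes, 69.93%, against a median of 47.2% over all matched genes. After each library's trend with GC content was removed, the log2 fold change was 0.09 (edgeR adjusted p = 0.953).

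EGR1 (chr5:138465479-138469303), a zinc finger factor that is not an AP-1 subunit but is induced beside FOS by ERK signaling, was at 444, 150, 459 and 106 CPM in untreated cells. BV6 cells held 171, 225 and 108 CPM. Untreated replicates 1 and 3 were far above the other 5 samples, as they were for FOS. The means were 290 ± 188 and 168 ± 58.6 CPM (log2 fold change -0.79, SE 0.497, edgeR adjusted p = 0.728). Between 5795 and 34229 counts per sample lay behind these values.

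ATF3 (chr1:212565334-212620777), a bZIP factor induced by cellular stress, was at 35.7, 28.6, 61.2 and 33.3 CPM in untreated cells and at 55.1, 63.7 and 44.3 CPM with BV6. BV6 values lay above 3 of the 4 untreated samples and on both sides of untreated replicate 3. The means were 39.7 ± 14.6 and 54.4 ± 9.74 CPM (log2 fold change 0.45, SE 0.247, edgeR adjusted p = 0.679). With the replicate block the log2 fold change was 0.47 (SE 0.162, edgeR adjusted p = 0.314).

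MAFF (chr22:38200767-38216507), a small MAF protein without an activation domain that pairs with other bZIP proteins, was at 6.13, 6.41, 3.35 and 4.12 CPM in untreated cells. With BV6 it was at 8.35, 4.86 and 4.07 CPM. The log2 fold change was 0.20 (SE 0.303, edgeR adjusted p = 0.878), and -0.16 without BV6 replicate 2. MAFF shares 326 bases, or 5.81% of its exons, with PLA2G6 on the opposite strand.

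The 10 genes were then compared within each experiment. In BC13 all 10 were higher with BV6, where 49.6% of tested genes were. In BC14 4 were higher, against 44.7% of tested genes, and 6 were lower: FOS, FOSB, JUN, JUNB, JUND and EGR1. In BC25/27 7 were higher, against 50.4% of tested genes, and FOS, JUND and MAFF were lower. The median log2 ratio of the 10 genes was 0.411 in BC13, -0.50 in BC14 and 0.245 in BC25/27, beside -0.001, -0.052 and 0.002 over all tested genes. The count of genes higher in all 3 experiments was 3 of 10 (FOSL1, FOSL2 and ATF3), against 15.6% of tested genes, and 0 of 10 were lower in all 3, against 17.7%.

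The FOS log2 ratio was 0.34 in BC13, -1.40 in BC14 and -0.14 in BC25/27. That of FOSB was 1.47, -1.36 and 0.61, and that of EGR1 was 0.19, -1.03 and 0.02. For these 3 genes BC14 was the experiment with the highest untreated level, and its BV6 sample was at 0.38, 0.391 and 0.49 times that level. JUNB went 0.44, -1.32 and 1.24. JUN had the same signs at a smaller scale (0.23, -0.35 and 0.35). JUND was at 0.07, -0.65 and -0.26, with the opposite sign to JUNB in BC25/27. MAFF, at 0.38, 0.54 and -0.02, had its highest ratio in BC14. The ATF3 log2 ratio was 0.94, 0.06 and 0.41, so BC14 added least to its direction.

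In the library of BV6 replicate 3, in BC14, level relative to the mean of all samples fell off with GC content. The deviation of log2 CPM from each gene's mean moved by -0.33 for every 10 points of GC. In the other 6 libraries it moved by -0.037 to 0.238. Genes with an exonic GC content of 55% or more had a median log2 ratio of -0.480 in BC14 (5144 genes), and -0.056 and 0.148 in BC13 and BC25/27. The exonic GC content of the 10 genes ran from 46.74% (ATF3) to 69.93% (JUND). Once each library's GC trend was removed, an alternative chosen after seeing the data, the BC14 log2 ratio of JUN was -0.07, of JUNB -0.54 and of JUND 0.41. That of MAFF was 1.13, of FOSL1 0.52, of FOSL2 0.27 and of ATF3 0.00. In BC25/27 the log2 ratio of FOSL1 went from 0.22 to 0.09 and that of JUND from -0.26 to -0.59. FOS, FOSB and EGR1 still had BC14 log2 ratios of -1.28, -0.97 and -0.80. The median over the 10 genes was then 0.452, -0.034 and 0.159 in BC13, BC14 and BC25/27, beside -0.004, 0.002 and -0.008 over all genes with a known GC content. The part of the GC trend in these ratios was not tested beyond this. Without BV6 replicate 3 the log2 fold changes across groups were -0.99 for FOS, -0.52 for FOSB, -1.05 for EGR1 and -0.41 for JUND, and 0.17 for JUN and 0.36 for JUNB. For FOSL1, FOSL2, ATF3 and MAFF they were 0.76, 0.44, 0.33 and 0.32, and 0 of 10 genes were called.

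**Figure D2:**
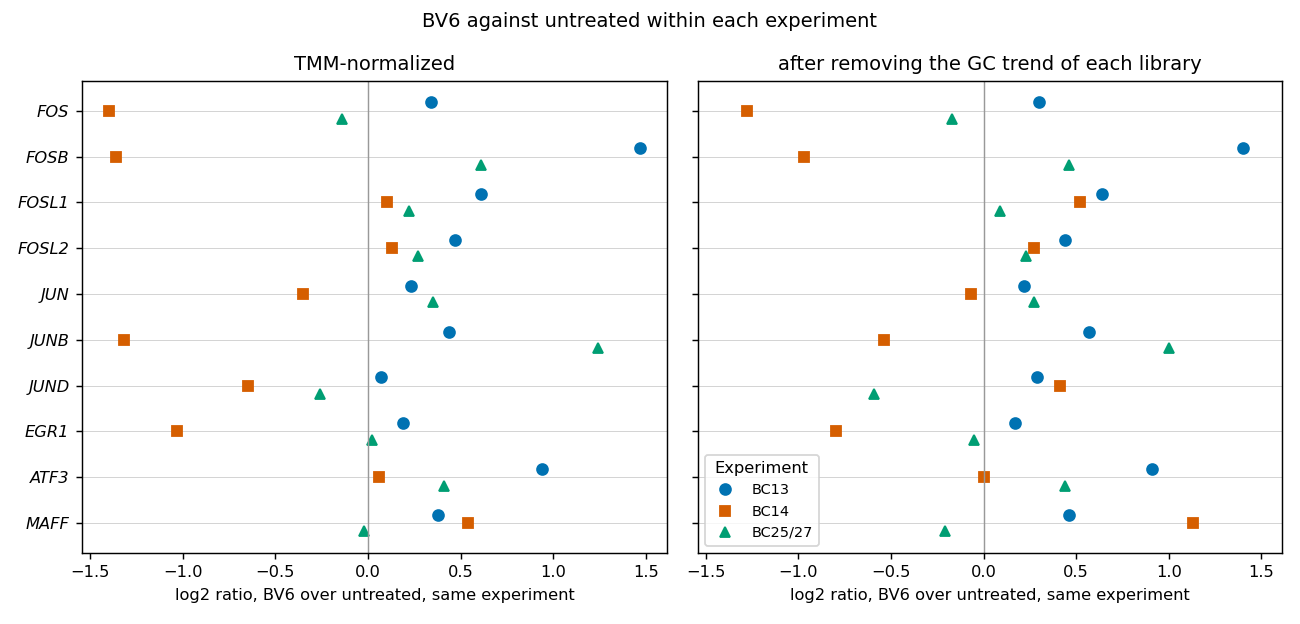
Log2 ratio of BV6 to untreated CPM within each experiment for the 10 genes, from TMM-normalised values (left) and after the trend of each library with GC content was removed (right). Each point is 1 experiment. BC14 lies at the left for FOS, FOSB and EGR1 in both panels, whereas for JUND its point moves from -0.65 to 0.41.

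With the replicate block 0 of 10 genes were called, against 0.943% of tested genes. At an unadjusted p below 0.05 it was 3 of 10 (FOSL1, FOSL2 and ATF3), against 11.4% of tested genes. With the GC correction and the replicate block together, 2 of 10 genes passed, against 6.08% of 17937 genes. These were FOSL2 (SE of the log2 fold change 0.0623) and FOSL1 (SE 0.103), with the values given above. ATF3 was at 0.44 in that fit (SE 0.14, edgeR adjusted p = 0.111), FOS at -0.43 (adjusted p = 0.385) and EGR1 at -0.23 (adjusted p = 0.45). JUND was at 0.03 (SE 0.167, adjusted p = 0.94). Across fits the median log2 fold change of the 10 genes was -0.043, and 0.124 with the block, beside -0.014 and -0.022 over all tested genes.

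**Figure D3:**
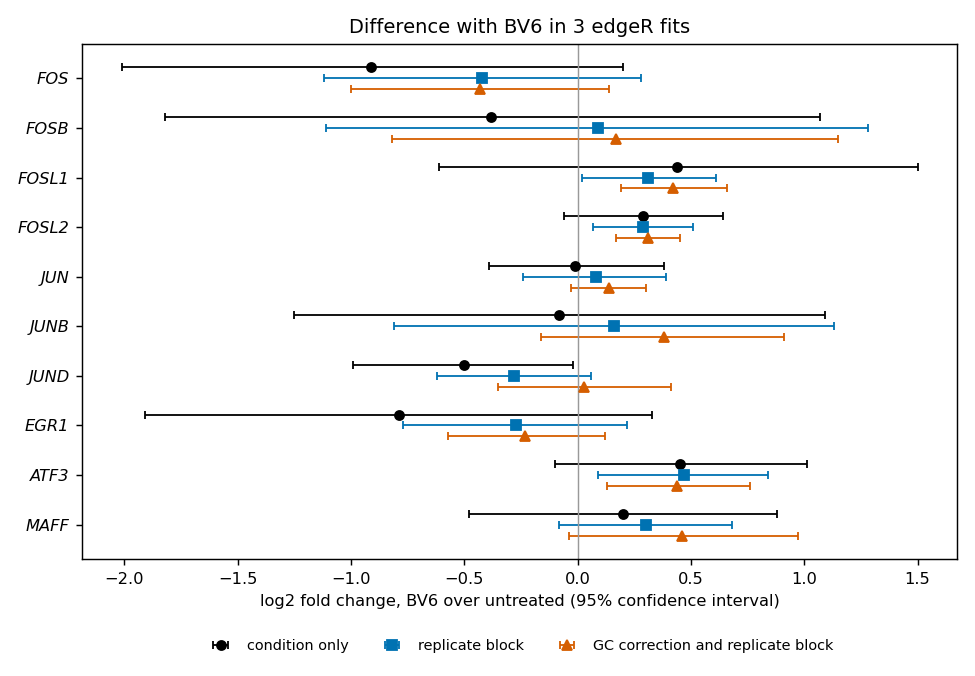
Log2 fold change of BV6 over untreated for the 10 genes in 3 edgeR fits, with 95% confidence intervals. Black circles are the fit with condition only, blue squares the fit with the replicate block, and orange triangles the fit with the GC correction and the replicate block. The FOSL1, FOSL2, ATF3 and MAFF points are positive in all 3 fits, and the FOS and EGR1 intervals include 0 in all 3.

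Several of these genes differed widely among the untreated samples. The SD of log2 CPM over the 4 untreated samples had a median of 0.548 across the 10 genes and 0.235 across all tested genes. FOSB had an SD of 1.33, larger than 99.6% of tested genes. FOS, at 1.12, exceeded 98.9% of them and EGR1, at 1.08, exceeded 98.8%. JUNB (0.71) and FOSL1 (0.62) exceeded 93% and 89.7% of tested genes. FOSL2 and JUN were the steadiest of the 10, at 0.19 and 0.21, with 39.4% and 42.9% of tested genes below them.

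In the 6 paired samples the variance of each gene was divided between experiments, conditions and the remainder. Experiments held 93.6% of the variance of FOSL1, 82.5% of that of EGR1, 81.6% of that of MAFF and 70.5% of that of FOS. Conditions held 4.31%, 3.64%, 11.4% and 6.75% in the same order. The share of conditions was largest for JUND (37.6%), FOSL2 (30.5%) and ATF3 (29.1%). These shares are without the GC correction, under which the JUND log2 fold change was 0.09. For JUN, JUNB and JUND the largest share, 53.3%, 54% and 41.7%, was in neither. That remainder holds differences in the BV6 ratio between experiments. With a single library per experiment and condition, these cannot be told apart from noise of the libraries. The median share between experiments was 62.806% for the 10 genes and 54.735% for all tested genes.

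Some of the genes varied alike over the 7 samples, without falling into separate groups. Pearson's r of log2 CPM is given as a description, since the samples share depth, GC trend and experiment. FOS, FOSB and EGR1 varied together (FOSB with EGR1 0.84, FOS with EGR1 0.71, FOS with FOSB 0.67). JUN and JUNB had an r of 0.97, and JUND was at 0.63 with JUN and 0.60 with JUNB. FOSL1 and MAFF had an r of 0.90. FOSL1 was opposed to FOS (-0.68), as MAFF was (-0.58). FOSL2 was opposed to EGR1 (-0.67). JUND was closer to FOS (0.79) than to JUN or JUNB, and FOSB was closer to ATF3 (0.76) than to FOS.

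Among 12963 other tested genes with a mean of at least 5 CPM, the 3 genes closest to each of the 10 were taken by the same r over 7 samples. With so many candidates and 7 samples a high r is common, so these are descriptions. The profile of EGR1 was closest to PEX5 (0.975), a peroxisomal import receptor, AL357060.1 (0.967) and AC068152.1 (0.948), and that of FOS to FXYD6 (0.981), PTPN18 (0.979) and NDST2 (0.977). FOSB was closest to MT-TA (0.937), a mitochondrial transfer RNA, CCNL1 (0.929), a cyclin L that is itself an immediate early gene, and DNASE2 (0.92). FOSL1 was closest to MRPL9 (0.993), SRPRA (0.99) and MPDU1 (0.989). FOSL2 was closest to CHTOP (0.966), HSPA12A (0.96) and IGF1R (0.956), the receptor for insulin-like growth factor 1. JUN was closest to AC055811.2 (0.994), ZSWIM8 (0.99) and PNKD (0.985), and JUNB to PGF (0.996), RNF44 (0.994) and WASH7P (0.992). JUND was closest to ANXA11 (0.974), DNAJB1 (0.968) and SREBF2-AS1 (0.968). ATF3 was closest to LINC00909 (0.974), LGI2 (0.963) and NAPB (0.961), and MAFF to PPP1R10 (0.997), AL035411.1 (0.987) and ISG20L2 (0.983).

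Levels of the 10 genes were compared per kilobase of exon, as CPM per kb. Exon length was the union over all annotated transcripts of a gene, which rare isoforms can lengthen. No GC correction was applied, so the order depends in part on the measure. Untreated cells held 118 ± 17.7 of JUN, 92.4 ± 59.9 of EGR1, 18.3 ± 5.43 of JUND, 16 ± 2.21 of FOSL2 and 15.9 ± 7.54 of FOSL1 (SD, n = 4). ATF3 was at 9.93 ± 3.65, JUNB at 9.6 ± 5.56, FOS at 3.45 ± 2.1, MAFF at 0.892 ± 0.267 and FOSB at 0.211 ± 0.201 CPM per kb. JUN was thus the leading JUN gene, and FOSL2 and FOSL1 stood above FOS and FOSB in the FOS family. Neighbours in this order had untreated ranges apart only for EGR1 above JUND, JUNB above FOS and MAFF above FOSB, each in 7 of 7 samples. JUN was above EGR1 in 6 of 7 samples. JUND and FOSL2, FOSL2 and FOSL1, FOSL1 and ATF3, ATF3 and JUNB, and FOS and MAFF were not apart beyond their spread. With BV6 the levels were 117 ± 27 for JUN, 53.4 ± 18.7 for EGR1, 19.6 ± 3.85 for FOSL2 and 21.7 ± 16.6 CPM per kb for FOSL1 (SD, n = 3).

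**Figure D4:**
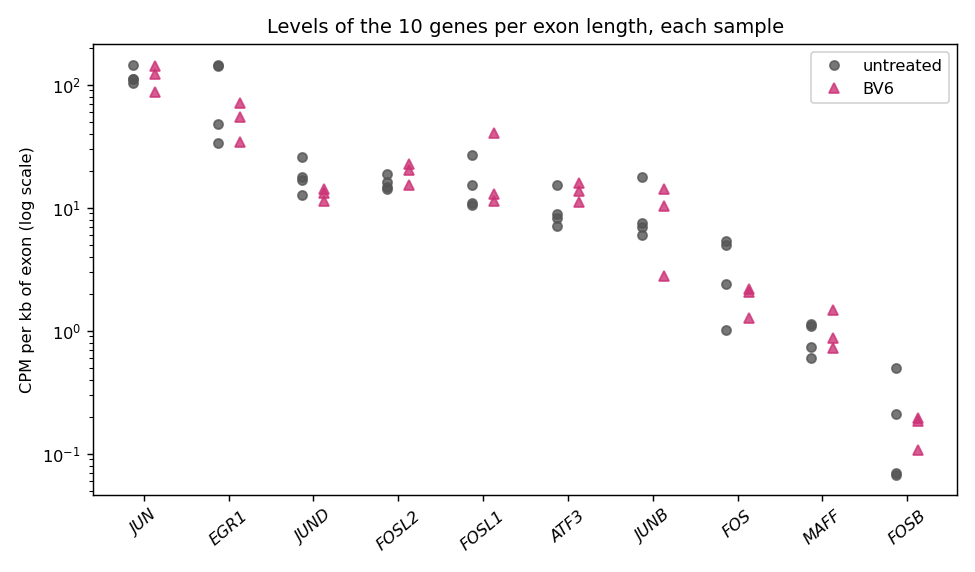
CPM per kilobase of exon (log axis) of the 10 genes in each sample, ordered by the untreated mean. Grey circles are untreated samples (n = 4) and pink triangles BV6 samples (n = 3). JUN and EGR1 lie above the other 8 genes in each sample, FOSB lies lowest, and the untreated points of EGR1, FOS and FOSB are the most spread.

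Other genes of the pathway were read from 4 lists drawn up from general knowledge, with earlier results of these data known. The counts in these lists beside the share of all tested genes are thus descriptions and no independent test. Of 49 tested other immediate early genes, 3 rose (GADD45A, PPP1R15A and PLK2) and 0 fell, where 0.45% of all tested genes were called, with a median log2 fold change of -0.02 beside -0.014 over all tested genes. GADD45A, a growth arrest gene, was at 132, 119, 133 and 119 CPM in untreated cells and at 187, 194 and 207 CPM with BV6. The groups did not overlap (log2 fold change 0.64, SE 0.0953, edgeR adjusted p = 0.0249). PPP1R15A, or GADD34, which guides the phosphatase that reverses the stress block of translation, was at 51.6, 47.5, 50.7 and 45.0 CPM and at 112, 77.3 and 82.3 CPM with BV6 (log2 fold change 0.90, SE 0.14, edgeR adjusted p = 0.029). PLK2, a polo-like kinase, was at 101, 131, 110 and 120 CPM and at 199, 194 and 169 CPM with BV6 (log2 fold change 0.70, SE 0.116, edgeR adjusted p = 0.0386). All 3 had positive log2 ratios in each experiment and also rose in the fit with the replicate block. Their adjusted p crossed the threshold when samples were left out: GADD45A missed it in all 7 fits (0.0512 to 0.112), PPP1R15A passed only without BV6 replicate 3, and PLK2 only without untreated replicate 2. In the other direction CTGF, a matrix protein, was at 8.59 ± 0.688 and 5.28 ± 0.332 CPM (log2 fold change -0.70, edgeR adjusted p = 0.098), and IER5L was at 1.13 ± 0.627 and 0.428 ± 0.175 CPM (-1.41, adjusted p = 0.421).

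Within the experiments, 34 of the 49 tested genes of the immediate early list were higher with BV6 in BC13 (median log2 ratio 0.11, where 49.6% of all tested genes were higher). In BC14 17 were higher (-0.24, beside 44.7%), and in BC25/27 34 were (0.12, beside 50.4%). After removal of the GC trends the medians were 0.10, 0.02 and 0.09. The part of GC content in these values was not tested further.

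Of 34 tested other bZIP factors, edgeR called 0 with condition only, and 5 had an unadjusted p below 0.05, beside 0.45% and 8.39% of all tested genes. DESeq2 called 2 and limma-voom 0, where they called 408 and 109 genes in all. With the replicate block 1 rose, against 0.943% of all tested genes called. It was DDIT3, which encodes the stress factor CHOP and can pair with ATF3. DDIT3 was at 87.8, 59.1, 126 and 94.3 CPM in untreated cells and at 141, 172 and 189 CPM with BV6, with no overlap (log2 fold change 0.87, SE 0.218, edgeR adjusted p = 0.201, and 0.0431 with the replicate block). CEBPG, a partner of ATF4, was at 42.6 ± 7.07 and 63.6 ± 1.67 CPM (log2 fold change 0.58, edgeR adjusted p = 0.153). MAFA and CEBPD had the smallest p among the lower genes, with log2 fold changes of -0.85 and -0.96 (edgeR adjusted p = 0.615 and 0.62). The list median was 0.10, with 21 genes higher and 13 lower.

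Of 48 tested kinases, phosphatases and other regulators of AP-1, edgeR called 0 with condition only (0.45% of all tested genes), and 5 had an unadjusted p below 0.05 (8.39% of all tested genes). DESeq2 called 1 and limma-voom 0, where they called 408 and 109 genes in all. The list median was 0.01, with 24 genes on each side. MAP3K14, the NF-κB-inducing kinase that cIAP loss stabilizes, was at 41.9, 52.3, 26.5 and 32.6 CPM in untreated cells and at 84.0, 48.4 and 72.2 CPM with BV6. It was higher in all 3 experiments (log2 ratios 0.68, 0.87 and 1.15) and rose with the replicate block (log2 fold change 0.90, SE 0.114, edgeR adjusted p = 0.0163). Without the block its adjusted p was 0.307 in edgeR. DUSP10, a phosphatase of JNK and p38, was at 49.3 ± 7.6 and 82.5 ± 8.16 CPM (log2 fold change 0.74, edgeR adjusted p = 0.0634). MAPK8IP1, a JNK scaffold, and RPS6KA1, a kinase downstream of ERK, had log2 fold changes of -0.54 and -0.28 (edgeR adjusted p = 0.517 and 0.721).

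Of 31 tested genes known as AP-1 targets, 3 rose, CD44 and MMP9 among them, and 0 fell, against 0.45% of all tested genes called, with a median log2 fold change of 0.06. Several of them also answer to NF-κB, so the list does not read AP-1 alone. CD44, a hyaluronan receptor, was at 154, 211, 165 and 193 CPM and at 336, 311 and 309 CPM with BV6 (log2 fold change 0.82, SE 0.123, edgeR adjusted p = 0.025). MMP9, a matrix metalloproteinase, was at 0.506, 0.463, 0.282 and 0.275 CPM and at 3.24, 0.978 and 3.83 CPM with BV6 (log2 fold change 2.80, SE 0.453, edgeR adjusted p = 0.0363), from 17 to 39 counts and 60 to 206 counts. The groups did not overlap for CD44 or MMP9. With 1 sample left out, CD44 passed only without untreated replicate 2 or BV6 replicate 3, and MMP9 only without BV6 replicate 3.

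With the replicate block 4 of the target genes rose and 2 fell, where 0.943% of all tested genes were called. VIM, the intermediate filament vimentin, was at 2430 ± 80.5 and 3557 ± 342 CPM (log2 fold change 0.55, edgeR adjusted p = 0.0561, and 0.0229 with the block). TNC, the matrix protein tenascin C, was at 1916 ± 315 and 1095 ± 421 CPM, and fell in the blocked fit (log2 fold change -0.89, edgeR adjusted p = 0.0144, and 0.286 without the block). IL11, a cytokine, was at 34.3 ± 10.3 and 18.6 ± 6.76 CPM and also fell in the blocked fit (log2 fold change -0.89, edgeR adjusted p = 0.0169, and 0.44 without the block).

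The libraries held 54070030 to 77220882 counts and 3.14% to 4.78% mitochondrial reads. The rhabdomyosarcoma label was checked with 12 markers, of which 10 were tested and 0 called, with a summed level of 2696 to 3610 CPM in untreated and 1896 to 3401 CPM in BV6 cells. MYOD1 and DES were present in all samples, and MYF6 and TFAP2B were at most at 0.0996 CPM. Of 14 leukocyte markers, 9 were tested and 0 called, with sums of 11.8 to 15.6 and 7.4 to 12.2 CPM. The highest was NKG7, at 7.55 to 11.1 CPM in untreated and 5.29 to 9.73 CPM in BV6 cells. The others were at most at 1.85 CPM (LCP1), and PTPRC (CD45) was below 1 CPM in each sample. The part of these markers in the levels above was not tested.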

How the data were processed

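Poly(A) RNA of RH30 cells was sequenced from stranded paired-end libraries. The authors mapped reads to GRCh38 with STAR 2.6.1d (also in the submitters' processing notes) and deposited raw read counts per gene, from a union of each Ensembl gene's isoforms. The counting program, its use of strand, and whether both mates of a pair were counted are not given in the sources used here. The deposited totals exceed the read numbers in the study's methods, as they would if both mates were counted. The authors' own DESeq2 normalisation is not in the deposited counts. Samples were grouped by the treatment in their labels.

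From the deposited counts (54070030 to 77220882 per sample), genes were filtered with filterByExpr (minimum count 10), scaled by TMM and tested with the quasi-likelihood test of edgeR 4.0.16 in R 4.3.3, with condition as the only term. P-values were adjusted by the Benjamini-Hochberg method over 23124 genes, and "rose" and "fell" mean an adjusted p below 0.05. CPM are TMM-normalised, and log2 CPM used a prior count of 2. An exact two-sided permutation test of 4 against 3 samples cannot go below 0.0571. Alternatives were DESeq2 1.42.0, limma-voom (limma 3.58.1), RLE scaling, no filter, at least 10 counts in every sample, a replicate block, a loess offset (span 0.5) on exonic GC content, both together, and each sample left out in turn. Exon lengths, coordinates and GC content came from GENCODE v44, where 37193 of 57189 genes were matched, 36327 by symbol and 866 by an older symbol. Exon length is the union of a gene's exons, and exonic GC content is that of its longest transcript. The authors used an earlier annotation. Scripts were tested on simulated data.

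Replicate numbers follow the BC label in the titles, which was taken as the pairing. Deviations from the means of the 3 paired samples of each group correlated, over genes, at 0.515, 0.322 and 0.197 in BC13, BC14 and BC25/27, and at a mean of -0.174 between experiments. Centring on the group means pulls the values between experiments below 0 when those within are positive, so that mean is no separate check. With untreated replicate 1 in the mean the values within experiments were 0.462, 0.438 and 0.0847. That replicate carries no weight in the blocked fit.

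The 10 genes and the lists were chosen with earlier results of these data known. From each list the text names every gene called with or without the replicate block and the 2 with the smallest p in each direction. One gene that this rule names among the AP-1 targets is not reported here.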

Additional observations from a re-analysis of the deposited data

Results flagged for a closer look

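Among the 29 genes whose untreated samples were examined one by one, 4 had 1 sample far from the other 3, by the gap to its neighbour as a share of the whole range (Dixon's test at the 95% level, which chance passes in about 1 of 20 groups). JUNB in untreated replicate 1 was at 32.7 CPM against 11.0 to 13.8 CPM in the others (0.87). CEBPD in the same replicate was at 4.44 CPM against 1.32 to 1.83 CPM (0.838). This library has the steepest positive relation of the 7 between GC content and level relative to the mean of all samples. The slope is 0.238 in log2 CPM per 10 points of GC, and the library has no BV6 partner. CEBPG in untreated replicate 4 was at 53.2 CPM against 38.2 to 39.5 CPM (0.914). CTGF in untreated replicate 2 was at 9.62 CPM against 8.2 to 8.33 CPM (0.912).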

How the results depend on the processing

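Of 80 log2 fold changes of the 10 genes under 8 other settings, 67 kept their direction and side of the threshold, 11 reversed and 2 became calls. FOSL1 (0.42) and FOSL2 (0.31) passed with the GC correction and replicate block, making 2 of 10 genes called there. FOSB reversed to 0.09 with the replicate block, 0.17 with GC correction and block, and 0.05 in limma-voom. With the replicate block, the GC correction and both, JUN was at 0.08, 0.09 and 0.14 and JUNB at 0.16, 0.18 and 0.38. JUND was at 0.09 with the GC correction and 0.03 with both. The cause was not tested. Leaving out 1 sample reversed 7 of 70 values, with ranges of -0.67 to 0.47 for FOSB, -0.39 to 0.80 for FOSL1, -0.17 to 0.17 for JUN, -0.58 to 0.41 for JUNB and -0.16 to 0.39 for MAFF, and 0 of 10 genes were called in any of these fits. Of 30 log2 ratios within experiments, 26 moved by less than 1 SD after removal of the GC trends, an alternative chosen after seeing the data. In BC14 JUN moved to -0.07, JUNB to -0.54, JUND to 0.41 and MAFF to 1.13.

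Over all tested genes, 104 were called, and 408 by DESeq2, 242 with no filter, 218 with the replicate block, 201 with the GC correction, 1091 with both, and 38 to 89 with 1 sample left out. The share of all genes called was 0.45% with condition only, 0.943% with the replicate block and 6.08% of 17937 genes with both. For the other fits the share was not computed. In the order DESeq2, no filter, replicate block, GC correction, and both, called bZIP factors (38 listed) numbered 2, 1, 1, 1 and 5. MAPK regulators (48 listed) numbered 1, 1, 1, 2 and 2 in that order. Other immediate early genes (50 listed) numbered 5 by DESeq2 and 9 with GC correction and block, and 0 to 1 with a sample left out. AP-1 targets (40 listed) numbered 5 with no filter, 6 with the replicate block, 8 with GC correction and block, and 0 to 3 with a sample left out.

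FOSB had the lowest counts of the 10 genes, with a count of 21 in its lowest sample.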
